A study of Homo sapiens with 2 samples.

Results

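The aldo-keto reductase genes of the AKR1C cluster on chromosome 10 (AKR1C1, AKR1C2, AKR1C3 and AKR1C4) and of the AKR1B cluster on chromosome 7 (AKR1B1, AKR1B10 and AKR1B15) were examined in a list of NRF1 binding peaks. A peak was assigned to a gene when its centre lay within 50 kb of any annotated transcription start site (TSS) of that gene, or when the study's annotation listed it for the gene. By this rule 8 of 5683 peaks belonged to the 7 genes, 7 of them in the AKR1C cluster and 1 in the AKR1B cluster. Only part of the study's own listing was available, and that part added 0 peaks. The peaks were called from 1 chromatin immunoprecipitation (ChIP) library made with an anti-NRF1 antibody from HCT116 cells, a human colorectal carcinoma line, after 16 h in the proteasome inhibitor MG132 at 1 µM. An input library from cells treated in the same way is part of the series and was not analysed here. No untreated library was compared, so the values describe binding under MG132 and not a response to it. With 1 library there is no replicate error and no test, the depth is unknown, and differences between scores were not tested.

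NRF1 (NFE2L1) is a transcription factor of the cap'n'collar family that reaches the nucleus when the proteasome is impaired. With small MAF proteins it binds the antioxidant response element (ARE), the element that is also bound by its relative NRF2. Aldo-keto reductases use NADPH to reduce carbonyl groups of sugars, lipid aldehydes, prostaglandins and steroids, and the human AKR1C and AKR1B10 genes are known for their response to NRF2 through AREs. The genes of each cluster lie side by side and are related in sequence, so a regulatory sequence of one can have a copy next to another. Over their coding sequences AKR1C1 and AKR1C2 were 98.0% identical, AKR1C1 and AKR1C3 91.4%, and AKR1C1 and AKR1C4 88.5%, while AKR1B10 and AKR1B15 were 85.9% identical. AKR1B1 was less alike, with 76.1% identity to AKR1B10 and 69.2% to AKR1B15. Gaps count as differences in these values. The AKR1B15 coding sequence used has 1032 bp against 948 bp for AKR1B10 and AKR1B1, which lowers its percentages. Counted in identical bases, AKR1B15 shared 886 with AKR1B10 and 719 with AKR1B1, and AKR1B10 shared 726 with AKR1B1.

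Peaks are named here by the gene and the distance of the peak centre from its canonical TSS, with a minus sign for upstream. A full ARE is TGAGTCAGC or TGACTCAGC on either strand, and a degenerate ARE matches TGAGNNNGC or TGACNNNGC without being full, so that any ARE covers both. The stretches around the full AREs of the AKR1C peaks are shown with the ARE in capitals, 5′ to 3′ on the strand that carries it, because they repeat between genes. Positions within an ARE are counted from 1 at its first T, and substitutions give the base of the full ARE first. The first group holds the AREs of the AKR1C1 −21.7 kb peak (hg19 chr10:4983886-4983894, plus strand) and of the AKR1C2 −16.6 kb peak (chr10:5062614-5062622, minus strand), with the aligned stretch of the AKR1C3 −15.4 kb peak (chr10:5121199-5121207, minus strand), which carries G2A.
AKR1C1 −21.7 kb: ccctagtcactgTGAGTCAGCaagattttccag
AKR1C2 −16.6 kb: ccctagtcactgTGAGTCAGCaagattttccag
AKR1C3 −15.4 kb: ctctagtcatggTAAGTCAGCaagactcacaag
The second group holds the AREs of the AKR1C1 −6.4 kb peak (chr10:4999264-4999272, minus strand) and of the AKR1C2 −5.5 kb peak (chr10:5051601-5051609, plus strand). It also holds the aligned stretch of the AKR1C2 −29.6 kb peak (chr10:5075718-5075726, minus strand), with G8T, and the ARE of a peak 75.5 kb past the TSS of AKR1C4 (chr10:5314223-5314231, plus strand), which lay outside the 50 kb window.
AKR1C1 −6.4 kb: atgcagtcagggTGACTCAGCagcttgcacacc
AKR1C2 −5.5 kb: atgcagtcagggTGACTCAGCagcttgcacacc
AKR1C2 −29.6 kb: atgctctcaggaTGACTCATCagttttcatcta
AKR1C4 +75.5 kb: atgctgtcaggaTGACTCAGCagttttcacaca
The third group holds the ARE of the AKR1C3 −22.6 kb peak (chr10:5114100-5114108, minus strand) and the aligned copy upstream of AKR1C1 (chr10:4990110-4990118, plus strand), which carries G8C and lay in no peak.
AKR1C3 −22.6 kb: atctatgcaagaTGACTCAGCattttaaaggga
copy upstream of AKR1C1: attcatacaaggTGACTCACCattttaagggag
The AKR1B10 peak held no full ARE, and the stretch of 68 bp at its centre (chr7:134200756-134200823, plus strand) is shown for its 2 copies of TGAGTCA, the part of the ARE that is shared with AP-1 sites.
AKR1B10 −11.5 kb: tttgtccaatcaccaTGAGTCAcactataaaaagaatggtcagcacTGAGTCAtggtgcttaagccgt

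Of the 7 genes, 5 had a peak within 50 kb of a TSS, against 32.7% of the 20175 protein-coding genes (6591 genes). AKR1C1, AKR1C2 and AKR1C3 each had at least 3 peaks in this window, which was so for 2.39% of protein-coding genes. The windows of neighbouring genes overlap, so these counts share peaks and are not independent. Within 2 kb of a TSS, 1 of the 7 genes had a peak, against 6.02% of protein-coding genes. That gene, AKR1C3, had 2 such peaks, each near the start of a different noncanonical transcript. No peak lay within 2 kb of the canonical TSS of any of the 7 genes. The peaks of both clusters were thus distal to the canonical promoters, at distances from 5528 to 29608 bp.

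**Figure D1:**
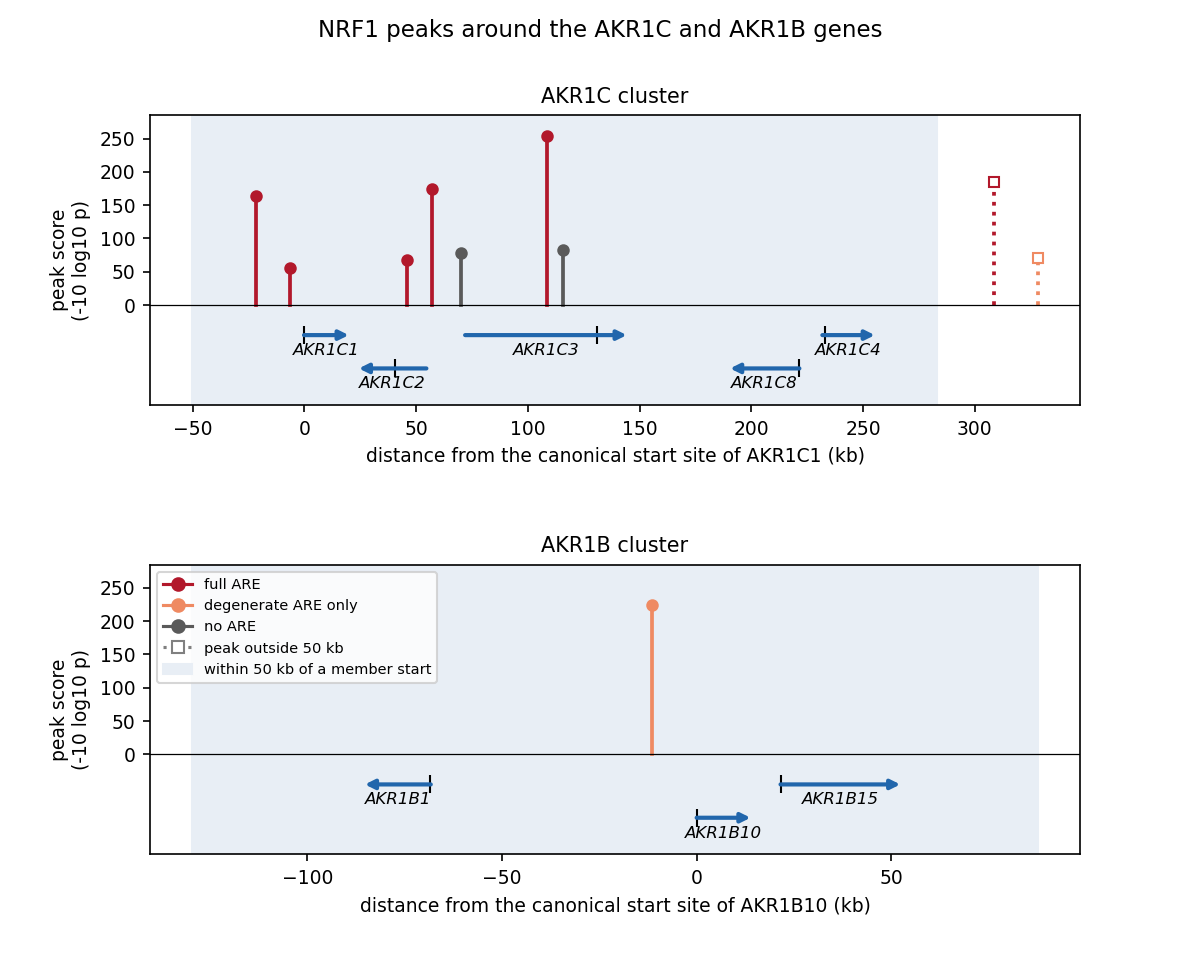
Scores of the NRF1 peaks (vertical axis, negative log10 p times 10, as written by MACS) along the AKR1C and AKR1B clusters (horizontal axis, kb from the canonical TSS of AKR1C1 or AKR1B10). Arrows are genes with their direction, including AKR1C8, which is not one of the 7, black ticks are canonical TSSs, colours give the ARE form, and the shaded span lies within 50 kb of a TSS of one of the 7 genes. The 7 AKR1C peaks lie around AKR1C1, AKR1C2 and AKR1C3, none lies within 50 kb of a TSS of AKR1C4, and the AKR1B cluster has 1 peak.

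AKR1C1, an enzyme that reduces progesterone to an inactive steroid, lies at chr10:5005445-5025475 on the plus strand (ENSG00000187134). It had 3 peaks within 50 kb. The AKR1C1 −21.7 kb peak (chr10:4983636-4984185, 550 bp, intergenic) had a score of 163.05, which ranked 1272 of 5683. The score is the authors' value, MACS's log10 p-value with its sign changed and multiplied by 10. It was used only to rank and compare peaks within the list, and it is not a measure of the amount of binding. The AKR1C1 −6.4 kb peak (chr10:4999035-4999394, 360 bp, intergenic) had a score of 55.59, close to the lowest of the list, and 10.8% of all peaks scored lower. The peak closer to AKR1C1 was thus the lower of the pair. The remaining peak in the window of AKR1C1 was the AKR1C2 −5.5 kb peak.

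AKR1C2, which reduces dihydrotestosterone and other steroids and also binds bile acids, lies on the minus strand at chr10:5029967-5060223 (ENSG00000151632). It had 4 peaks within 50 kb, and 3 of them are named for it. The AKR1C2 −5.5 kb peak (chr10:5051393-5051761, 369 bp) had a score of 67.52 and lay in the first intron of a noncanonical transcript. The AKR1C2 −16.6 kb peak (chr10:5062283-5062968, 686 bp) was the widest of the 8, and its score of 174.62 ranked 1130. It was intergenic, 2403 bp upstream of the outermost start of AKR1C2. The AKR1C2 −29.6 kb peak (chr10:5075436-5075877, 442 bp, intergenic) had a score of 77.58. It lay 1889 bp upstream of the outermost start of AKR1C3, so that it lay nearer to a start of AKR1C3 than to one of AKR1C2.

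AKR1C3, which makes testosterone from androstenedione and reduces prostaglandins, lies on the plus strand at chr10:5077546-5149878 (ENSG00000196139). It had 5 peaks within 50 kb. The AKR1C3 −22.6 kb peak (chr10:5113731-5114379, 649 bp) had the highest score of the 8, 253.18, which ranked 597, and 89.5% of all peaks scored lower. The AKR1C3 −15.4 kb peak (chr10:5120992-5121397, 406 bp) had a score of 82.14. Both lay in introns of the longer AKR1C3 transcripts, upstream of the canonical TSS. A shorter transcript starts between them, 5775 bp downstream of the centre of the first and 1365 bp upstream of that of the second.

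AKR1C4, the member of the cluster that is mainly expressed in liver, lies on the plus strand at chr10:5237425-5260912 (ENSG00000198610) and had 0 peaks. The centre nearest to one of its starts lay 75484 bp away, in the AKR1C4 +75.5 kb peak (chr10:5314056-5314511, 456 bp), which had a score of 184.07. From the end of the AKR1C3 −15.4 kb peak to the start of that peak, 193 kb held no peak. This span covers AKR1C4 and AKR1C8, and it also includes the canonical TSS of AKR1C3. The AKR1C peaks assigned by the 50 kb window were thus all at the AKR1C1 to AKR1C3 end of the cluster. This depends on the window, since AKR1C4 was the nearest protein-coding gene to the AKR1C4 +75.5 kb peak.

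AKR1B10, a reductase of retinal and lipid aldehydes of the small intestine and colon, lies on the plus strand at chr7:134212319-134226164 (ENSG00000198074). Its 1 peak, AKR1B10 −11.5 kb (chr7:134200437-134201118, 682 bp, intergenic), had a score of 223.57 and ranked 754. The same peak lay 33084 bp upstream of the TSS of AKR1B15, a close relative of AKR1B10 (chr7:134233862-134264627, plus strand, ENSG00000227471), and was the only peak within 50 kb of that gene. AKR1B1, aldose reductase of the polyol pathway, lies on the minus strand at chr7:134127108-134144036 (ENSG00000085662) and had 0 peaks within 50 kb. The AKR1B10 peak was also the nearest to AKR1B1, at 56742 bp, just outside the window, while the most distant pair counted inside it was the AKR1C1 −6.4 kb peak and the canonical TSS of AKR1C2, at 46834 bp.

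The 8 scores ran from 55.59 to 253.18 with a median of 123, against a median of 91.86 over all peaks, and 4 of the 8 lay above that value. The widths ran from 360 to 686 bp. The scores fell into a lower set of 4 from 55.59 to 82.14 and a higher set of 4 from 163.05 to 253.18. AKR1C1, AKR1C2, AKR1C3 and AKR1B10 each had a peak of the higher set assigned by name. For comparison, 13 of 14 classic ARE genes, among them NQO1, HMOX1 and GCLM, had a peak within 50 kb, and their 23 peaks had a median score of 432, with a range from 56.7 to 1008.48. The highest AKR peak was lower than that median. The CYP4F genes, another tandem cluster of 6 genes, had a peak for 6 of 6, with 4 peaks and a median score of 110. Over all protein-coding genes the share with a peak in this window was 32.7%. CYP4F3, CYP4F8 and CYP4F12 shared 1 peak, and the peak of CYP4F22 lay nearest to RASAL3. Within 2 kb of a TSS, 2 of the 6 CYP4F genes had a peak.

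**Figure D2:**
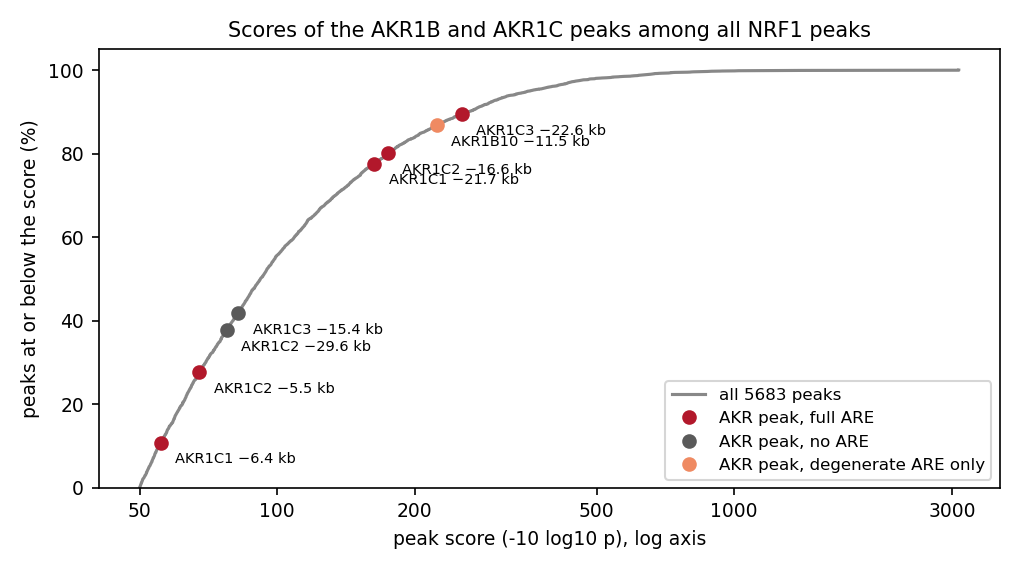
Cumulative share of all 5683 peaks (vertical axis, %) at or below each score (horizontal axis, negative log10 p times 10, log scale), with the 8 AKR peaks as points coloured by ARE form. The points form a lower set of 4, from 55.59 to 82.14, and a higher set of 4, from 163.05 to 253.18.

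A full ARE was found in 5 of the 8 peaks, against 61.3% of the 5673 peaks that could be searched, and any ARE in 6 of the 8, against 87.4%. All 5 full AREs were in AKR1C peaks. Their offsets from the centre were −21, 53, 28, −8 and 49 bp, listed in the order AKR1C1 −21.7 kb, AKR1C1 −6.4 kb, AKR1C2 −5.5 kb, AKR1C2 −16.6 kb and AKR1C3 −22.6 kb. Each was thus within 60 bp of the centre, and over all peaks the median distance was 30 bp. The peaks with a full ARE included the lowest score of the 8, 55.59, and the highest, 253.18. Of the 4 peaks with a score of at least 100, 3 had a full ARE. The remaining full AREs were in the AKR1C1 −6.4 kb and AKR1C2 −5.5 kb peaks, which had the lowest scores. With 8 peaks, some of them copies of each other, a relation between ARE form and score was not tested. Over the whole list, peaks with a full ARE had a median score of 103.43 (quartiles 70.94 and 174), those with a degenerate ARE alone 83.7, and those with no ARE 71.8.

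Among the 8 peaks, only the AKR1B10 peak held a degenerate ARE alone. Its ARE was degenerate (TGAGCCTGC) and lay 229 bp from the centre, while its 2 TGAGTCA copies lay at −4 and 27 bp, 31 bp apart. Of the peaks with a degenerate ARE alone, 6.69% held at least 2 such copies (TGAGTCA or TGACTCA), a count made after the sequence was seen. Its score of 223.57 was above that of 90.3% of the peaks with a degenerate ARE alone. On the minus strand, the copy at 27 bp lay in a 9-base stretch that differed from the full ARE only in its last base. How often such a stretch occurs in peaks with a degenerate ARE alone was not counted.

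The AKR1C2 −29.6 kb and AKR1C3 −15.4 kb peaks held no ARE of either form. Each held, in its place in the alignment, a 9-base stretch that differed by 1 base from the full ARE (G8T and G2A), at 65 and 8 bp from the centre. The AKR1C2 −29.6 kb peak held 2 copies of TGAGTCA on either strand, 1 of them within that 9-base stretch, and the AKR1C3 −15.4 kb peak held 0. Stretches 1 base from the full ARE are common at such peaks. Of the 715 peaks without an ARE, 61.4% had one in their central 200 bp, against 13.4% of stretches of the same length that start 2 kb past the end of the peak. These shares were counted after the sequences of the AKR1C peaks were seen.

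The peaks of AKR1C1 and AKR1C2 were copies of each other in pairs. The AKR1C1 −21.7 kb peak aligned over its whole length to the AKR1C2 −16.6 kb peak in the opposite orientation, with 89.9% identity and 56 differing positions in 557 columns. Their scores were 163.05 and 174.62. The AKR1C1 −6.4 kb peak aligned in the same way to the AKR1C2 −5.5 kb peak, with 95.8% identity and 15 differing positions in 361 columns, and the scores were 55.59 and 67.52. Both AREs were identical between the copies, as were 15 bp on both sides of each. In both genes the copy farther from the canonical TSS had the higher score, by 107.46 at AKR1C1 and 107.10 at AKR1C2, while the copies differed from each other by 11.57 in the farther pair and by 11.93 in the nearer pair. AKR1C1 and AKR1C2 lie in opposite directions, so that both copies of each pair lie upstream of the canonical TSS of their gene. The AKR1C2 −5.5 kb peak still lies within longer transcripts of AKR1C2.

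The other copies in these groups were less alike. The AKR1C3 −15.4 kb peak had 71.1% identity to the AKR1C1 −21.7 kb peak and 71.2% to the AKR1C2 −16.6 kb peak. The AKR1C2 −29.6 kb peak aligned over 276 bp to the AKR1C1 −6.4 kb peak, with 79.7% identity, and over its whole length to the AKR1C4 +75.5 kb peak, with 76.6%. The scores within the second group were 55.59, 67.52, 77.58 and 184.07, and the highest was that of the copy outside the window. The ARE was full in that copy and also in those that scored 55.59 and 67.52. The copy that scored 77.58 was the one with G8T. Counted by sequence, 6 of the 7 AKR1C peaks belonged to 2 groups of copies, and the AKR1C3 −22.6 kb peak and the AKR1B10 peak had no copy in another peak. The AKR1C3 −22.6 kb peak did have a copy upstream of AKR1C1 (chr10:4989848-4990276), with 79.1% identity over 440 bp, or 67.8% of the peak. That copy carries G8C in the ARE and lay in no peak. Each of its 337 stretches of 93 bases occurs once in the genome. Why the copy lay in no peak was not tested. No copy of the AKR1B10 peak was found at AKR1B15, AKR1B1 or the AKR1C cluster at the similarity that was searched.

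**Figure D3:**
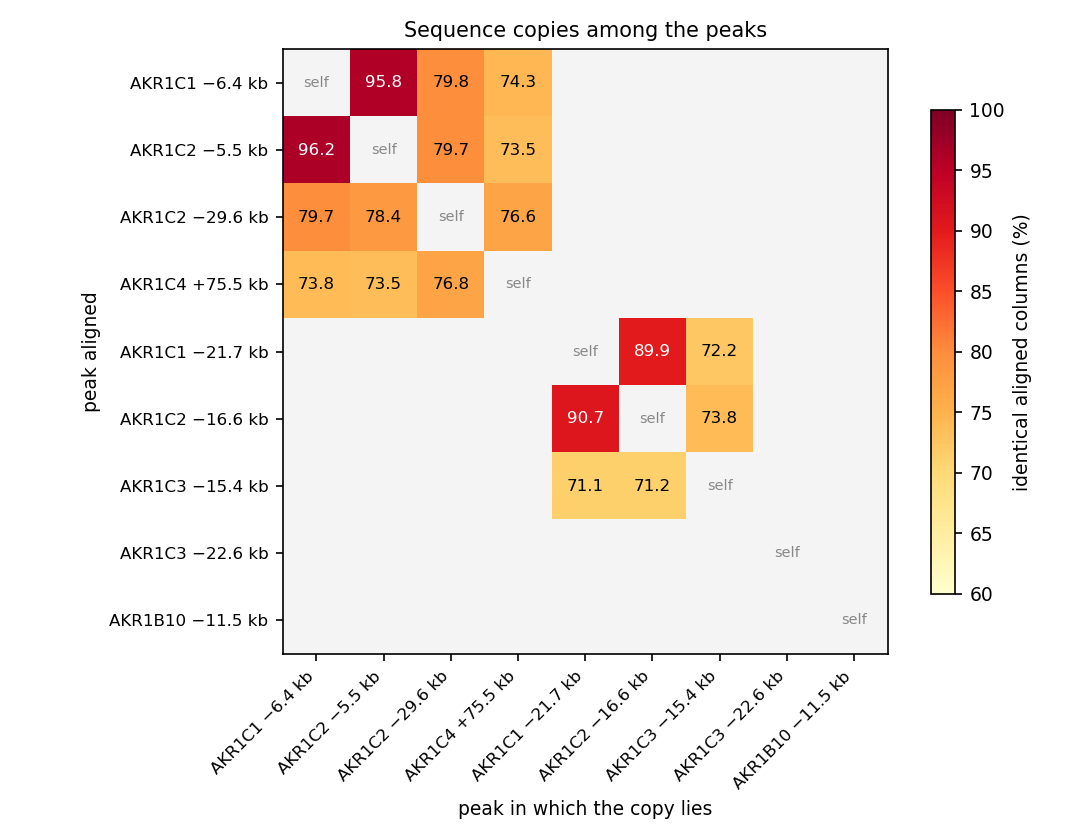
Percent identity of aligned columns (colour and number) between each peak in a row and the copy of it in a peak in a column, grey where no copy was found. Values above and below the diagonal differ because each row is aligned over the extent of its own peak. The identity is highest in the pairs of AKR1C1 and AKR1C2 peaks, 89.9 and 90.7% for one pair and 95.8 and 96.2% for the other.

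Reads from such copies can be hard to place. The library was sequenced in 93 cycles, and how reads that map to several places were treated is not given in the sources used here. Of the 3408 stretches of 93 bases in the 8 peaks, 3346 (98.2%) occurred once in hg19. The 62 others lay in the AKR1C1 −21.7 kb peak, 31 of its 458, and in the AKR1C2 −16.6 kb peak, 31 of its 594. Each of the 85 stretches of 93 bases that cover a full ARE occurred once, in all 5 peaks that hold one. With 50 bases, 91.6% of stretches occurred once, and with 36 bases 86.5%, and the lowest share was that of the AKR1C1 −6.4 kb peak, with 195 of 325 stretches. A read with an error at a differing base could still be placed at the wrong copy, and its part in the scores was not tested.

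**Figure D4:**
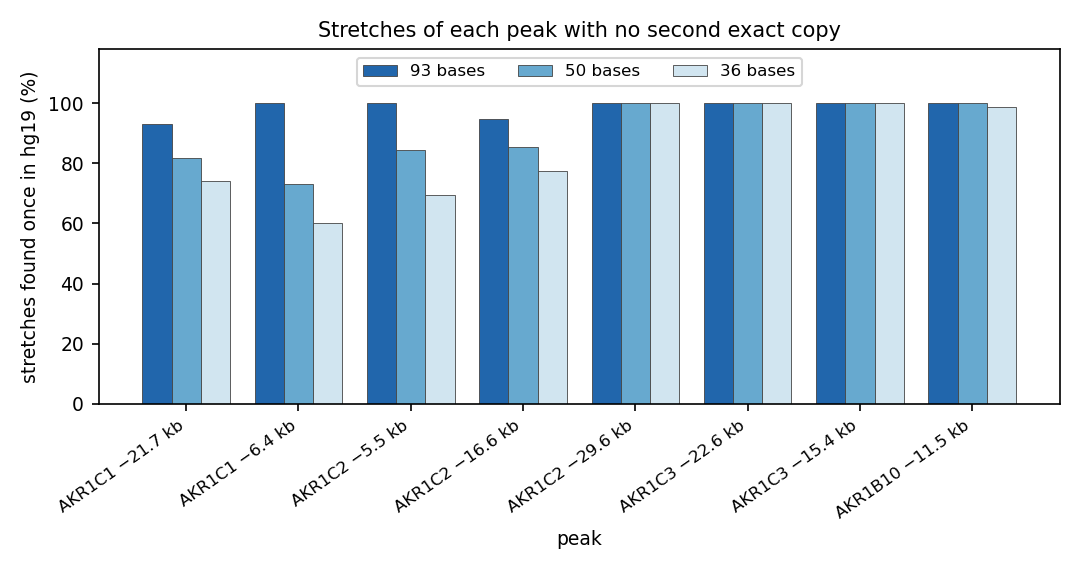
Share of stretches of each peak (vertical axis, %) that occur once in hg19 on both strands, for stretches of 93, 50 and 36 bases. At 93 bases 6 of the 8 peaks are at 100%, and at 36 bases the AKR1C1 −6.4 kb peak is lowest, with 195 of 325.

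The genome holds 53242 full AREs, of which 7.35% lay in a peak. The spans within 50 kb of a start of the 7 genes held 13, and 5 of them lay in a peak. All 5 were among the 11 in the span of 333 kb around the AKR1C genes, and neither of the 2 in the span of 217 kb around the AKR1B genes lay in a peak. Those 2 were at chr7:134168290-134168298, upstream of AKR1B1, and at chr7:134187680-134187688, upstream of AKR1B10. In the AKR1C span, 6 full AREs lay in no peak. Among them was another pair of copies upstream of AKR1C1 (chr10:4982220-4982228) and of AKR1C2 (chr10:5064281-5064289), each within 2 kb of a peak of the higher set. Their sequences differ by 2 bases outside the ARE in the 39 bp shown.
upstream of AKR1C1, no peak: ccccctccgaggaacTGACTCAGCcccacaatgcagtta
upstream of AKR1C2, no peak: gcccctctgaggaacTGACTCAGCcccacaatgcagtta
Of the 85 stretches of 93 bases over each of these AREs, 77 occurred once. For 6 of the 8 AREs outside peaks in both spans, all stretches did.

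The full AREs in the 5 AKR1C peaks were each followed by A, and of the 8 outside peaks 3 were. Those 3 were 1 upstream of AKR1B1 and 2 between AKR1C3 and AKR1C4, and the remaining ones were followed by T, C or G. Copies are counted separately here, both the paired AREs of the AKR1C1 and AKR1C2 peaks and the pair outside peaks, so these AREs are not independent sequences. Over all peaks, 73.9% of the full AREs were followed by A, and over the genome 31.9% of those outside peaks were. Read the other way, 15.5% of the full AREs followed by A lay in a peak, against 2.95% of those followed by another base. These counts were made after the sequences were seen.

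The canonical promoters of the 7 genes, from 250 bp upstream to 50 bp downstream of the TSS, held no full ARE, which was found in 0.745% of the promoters of all protein-coding genes. Any ARE was found in 2 of the 7, at AKR1C1 and AKR1C2, against 30.9% of all. Both were the degenerate form TGAGCTGGC, at 37 and 41 bp upstream of the TSS, and no peak lay there.

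Of 10 other genes of the aldo-keto reductase superfamily, 6 had a peak within 50 kb, from 4 peaks, against 32.7% of protein-coding genes. AKR1A1, an aldehyde reductase, had the highest, with a score of 448, but this peak lay nearer to PRDX1. KCNAB1 and KCNAB2, which encode potassium channel subunits, had peaks with scores of 256.06 and 104. AKR7A2, AKR7A3 and AKR7L shared 1 peak with a full ARE and a score of 57.96, which lay nearer to SLC66A1. Its centre was 584 bp from a TSS of AKR7A2, but 23958 bp from AKR7A3 and 38534 bp from AKR7L. AKR1D1, AKR1E2, AKR1C8 and KCNAB3 had none.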

How the data were processed

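The NRF1 ChIP library of MG132-treated HCT116 cells was sequenced by the authors with single-end reads. Per the submitters' processing notes, CASAVA 1.8.2, Bowtie2 2.2.6, MACS 1.4.2 and the build hg19 were used. The deposited list gives each peak's start, end and score. MACS settings, the control used, removal of duplicates and treatment of reads with several positions are not given in the sources used here, and depth is unknown.

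Gene models were taken from GENCODE (release 44, mapped to hg19), and the sequence from the same build. AREs were searched on both strands in 5673 peaks, leaving out 10 on contigs or with undetermined bases. Copies were sought with blastn 2.17.0 (word size 11, e-value 1e-10, 150 bp added on each side) within both clusters. Exact stretches were counted over the whole genome. The scripts ran under Python 3.11.15 with pysam 0.24.0 for sequences, pandas 2.3.3 for tables and matplotlib 3.10.9 for plots. The searches were tested on simulated data, where 200 of 200 planted AREs were found.

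The genes, lists and alternatives were chosen with earlier results of these data known, and every peak assigned to the 7 genes is described. The classic ARE genes and the CYP4F genes are counted for comparison, and genes that lie nearest to a described peak are named beside it. No test was run, since there is 1 library. Array measurements of the study were not used here.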

Additional observations from a re-analysis of the deposited data

How the results depend on the processing

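The 7 genes had 8 peaks and 5 genes with a peak within 50 kb. A score of at least 100 left 4 peaks, with 5 genes still having one, and a full ARE in 3. A window of 10 kb left 3 genes with a peak. In the flanks of the same length 2 kb from each edge, a full ARE was found in 0 and any ARE in 3. With shared stretches of 20 bases in place of 30, 4 pairs of peaks shared sequence in place of 2. The share of stretches found once was 91.6% with 50 bases and 86.5% with 36 bases, against 98.2%. The share of protein-coding genes with a peak was 18.7% within 20 kb, 12.6% within 10 kb and 17.6% with a score of at least 100, and the other aldo-keto reductases with a peak fell from 6 to 3 within 20 kb and to 3 with a score of at least 100. Distances from the peak edge, protein-coding transcripts alone and merged peaks left 8 peaks. No paired analysis was possible because the results come from 1 library and no test.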

Other observations

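The AKR1C peaks lie close together. The 7 peak centres span 137 kb, and of the 5537 runs of 7 neighbouring peaks in the genome 4 were no wider (0.0722%), this one included. The other runs lay on chromosome 7 near YWHAG, on chromosome 17 near MAFG and on chromosome 20 near TRIB3. The comparison was chosen after the peaks were seen, and the copies described above mean that the AKR1C peaks are not independent sequences. Another peak beyond AKR1C4 and outside the 50 kb window (chr10:5333513-5334099, score 70.5) held a degenerate ARE alone and lay nearest to UCN3.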
